A study of Mus musculus with 12 samples.

Results

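The 10 genes described here encode the membrane-embedded V0 sector of the vacuolar proton pump (V-ATPase) and its accessory proteins: Atp6v0a1, Atp6v0a2, Atp6v0b, Atp6v0c, Atp6v0d1, Atp6v0d2, Atp6v0e, Atp6v0e2, Atp6ap1 and Atp6ap2. Their members were all peaks of accessible chromatin that the deposited tables assign to one of these genes by name, 61 of 91770 in microglia, 54 of 107627 in NeuN+ nuclei and 44 of 82577 in Olig2+ nuclei, or 159 of 281974 in all. ATAC-seq, in which a transposase cuts open chromatin, was done on forebrain of C57BL/6 mice aged 4 months, either wild type (WT) or SgshKO. Sgsh encodes sulfamidase, a lysosomal enzyme that degrades heparan sulfate, and its loss causes a lysosomal storage disease. The labels give neither the Sgsh allele nor the number, sex or pooling of the animals. Live microglia were gated as CD11b+, CX3CR1+ cells with low CD45, while NeuN+ nuclei (neurons, gated PU.1- and OLIG2-) and Olig2+ nuclei (the oligodendrocyte lineage, gated PU.1- and NEUN-) were sorted after light formaldehyde fixation. Each of the 6 groups of sort and genotype had 2 libraries, 12 in all, and nothing states that they came from separate animals, so the tests measure the spread between libraries, which may be technical.

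The V-ATPase is a rotary pump. Its cytosolic V1 sector hydrolyses ATP and turns a ring of proteolipid subunits in the V0 sector, which carries protons into lysosomes, endosomes and secretory vesicles. In V0, the a subunits hold the proton channels and differ between organelles, the c and c″ proteolipids (Atp6v0c and Atp6v0b) form the ring, the d subunits couple the ring to the V1 stalk, and the small e subunits sit beside them. Atp6ap1 is an assembly factor and Atp6ap2 is the (pro)renin receptor, and both bind the V0 sector. The MiT/TFE transcription factors, which act when lysosomes are under stress, bind E-box motifs near the start sites of lysosomal genes. In microglia the pump acidifies the compartments that digest engulfed material, and in neurons it also powers the filling of synaptic vesicles.

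Promoter windows from RefSeq (build GRCm38.p6, the assembly that mm10 also names; 250 bases before to 50 after a start site) were found for 8 of the 10 genes. These are 10 windows, 3 of them of Atp6v0c. No window was found for Atp6v0a2 and Atp6v0d2, and the window of Atp6v0a1 begins downstream of the start-site peak described for that gene. The core E-box CACGTG was searched on both strands, and occurred in 3 of the 10 member windows (those of Atp6v0b, Atp6v0d1 and Atp6v0e), against 7.15% of all 32851 windows. The longer form TCACGTGA, which contains that core, occurred in Atp6v0d1 and Atp6v0e and in 0.974% of all windows. The still longer form with G before and C after these letters occurred in 0 of the 10 member windows and in 0.326% of all windows. The PU.1-type motif GAGGAAGT (3.2% of all windows) was found in 0 of the 10 member windows. The M-box TCATGTGA, found in 0.986% of all windows, occurred in 1 of the 3 windows of Atp6v0c. The GC box GGGCGG occurred in 9 of the 10 member windows, those of 7 of the 8 genes (all but Atp6v0d1), against 35.7% of all windows. The CCAAT box occurred in 4 of the 10 member windows, among them that of Atp6ap2, against 37.4%. A match is a description of these letters only. The 160 bases from 130 before to 30 after the start are printed, 5′ to 3′ on the gene's strand, for the 3 genes with an E-box, for the Atp6v0c window with the M-box, and for Atp6ap2, which had no E-box and whose start-site peak rose in microglia. Capitals mark CACGTG in the lines of Atp6v0d1, Atp6v0e and Atp6v0b, TCATGTGA in that of Atp6v0c, and CCAAT or its reverse ATTGG in that of Atp6ap2.
Atp6v0d1, chr8:105566035-105566194, minus strand: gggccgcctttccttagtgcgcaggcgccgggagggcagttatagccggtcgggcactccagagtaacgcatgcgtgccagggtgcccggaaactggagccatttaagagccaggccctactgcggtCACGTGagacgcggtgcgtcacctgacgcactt
Atp6v0e, chr17:26676266-26676425, plus strand: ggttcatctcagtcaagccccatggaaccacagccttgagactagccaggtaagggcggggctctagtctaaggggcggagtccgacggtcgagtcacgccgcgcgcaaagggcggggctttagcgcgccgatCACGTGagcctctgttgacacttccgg
Atp6v0b, chr4:117887300-117887459, minus strand: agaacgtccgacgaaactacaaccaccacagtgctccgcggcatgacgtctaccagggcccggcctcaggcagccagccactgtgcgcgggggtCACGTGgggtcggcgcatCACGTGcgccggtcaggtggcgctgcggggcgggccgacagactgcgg
Atp6v0c, chr17:24169421-24169580, minus strand: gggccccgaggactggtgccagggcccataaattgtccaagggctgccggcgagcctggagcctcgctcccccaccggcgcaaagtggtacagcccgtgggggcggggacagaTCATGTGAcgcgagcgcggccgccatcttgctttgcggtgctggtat
Atp6ap2, chrX:12587629-12587788, plus strand: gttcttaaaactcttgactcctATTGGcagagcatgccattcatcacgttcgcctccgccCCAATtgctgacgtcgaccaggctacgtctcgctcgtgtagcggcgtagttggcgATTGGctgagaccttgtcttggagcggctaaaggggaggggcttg

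The E-box of Atp6v0d1 began 3 bases before its start and that of Atp6v0e 4 bases after it, and both E-boxes of Atp6v0b lay within 36 bases before its start. All 4 lay inside a listed peak in each of the 3 tables. The M-box of Atp6v0c lay inside a peak in microglia and Olig2+ nuclei, and inside none of the NeuN+ table.

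The libraries held 10771659 to 19555924 tags, and values are the deposited tag counts scaled to a library total of 10000000 (normalized tags). The share of tags inside peaks was 48.7% to 67.4% in microglia and 30.9% to 31.8% in Olig2+ nuclei. In NeuN+ nuclei it was 26.7% and 25.9% in the WT libraries and 21.5% and 21.2% in the SgshKO libraries. Start-site peaks (within 1000 bp of the start) were present for 9 of 10 microglial marker genes in microglia (all but Aif1), for 10 of 10 neuronal ones in NeuN+ nuclei and for 10 of 10 oligodendrocyte ones in Olig2+ nuclei, while 0 of 8 blood myeloid markers had one in the nuclei and 1 of 8 in microglia. The deleted gene gives no check of the labels in these data, because the labels do not say which part of Sgsh is missing. Its start-site peak held 229 and 192 normalized tags in WT and 364 and 253 in SgshKO microglia, 34.5 and 22.6 against 9.07 and 13.3 in NeuN+ nuclei, and 65.9 and 74.2 against 60.9 and 69.1 in Olig2+ nuclei.

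The highest start-site peak of each gene stood above the level of 81.8% or more of all microglial peaks, 92.2% or more of NeuN+ peaks and 85.5% or more of Olig2+ peaks. Atp6v0d2, the d subunit isoform best known from osteoclasts and macrophages, had no start-site peak in any table, and Atp6v0e2, an e subunit isoform known from brain, had none in microglia. Per 200 bp of peak, the WT mean at the highest start-site peak was largest for Atp6v0a1 in microglia (129 normalized tags), with Atp6ap2 (123), Atp6v0d1 (121) and Atp6v0a2 (111) next. It was largest for Atp6v0d1 in NeuN+ nuclei (141) and in Olig2+ nuclei (241). The lowest values belonged to Atp6v0c, with 31.9 in microglia and 55.6 in NeuN+ nuclei, and to Atp6v0e, with 51.9 in Olig2+ nuclei. Between the 2 libraries of a group, these peaks differed by a median of 1.08-fold to 1.19-fold and by at most 1.52-fold.

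**Figure D1:**
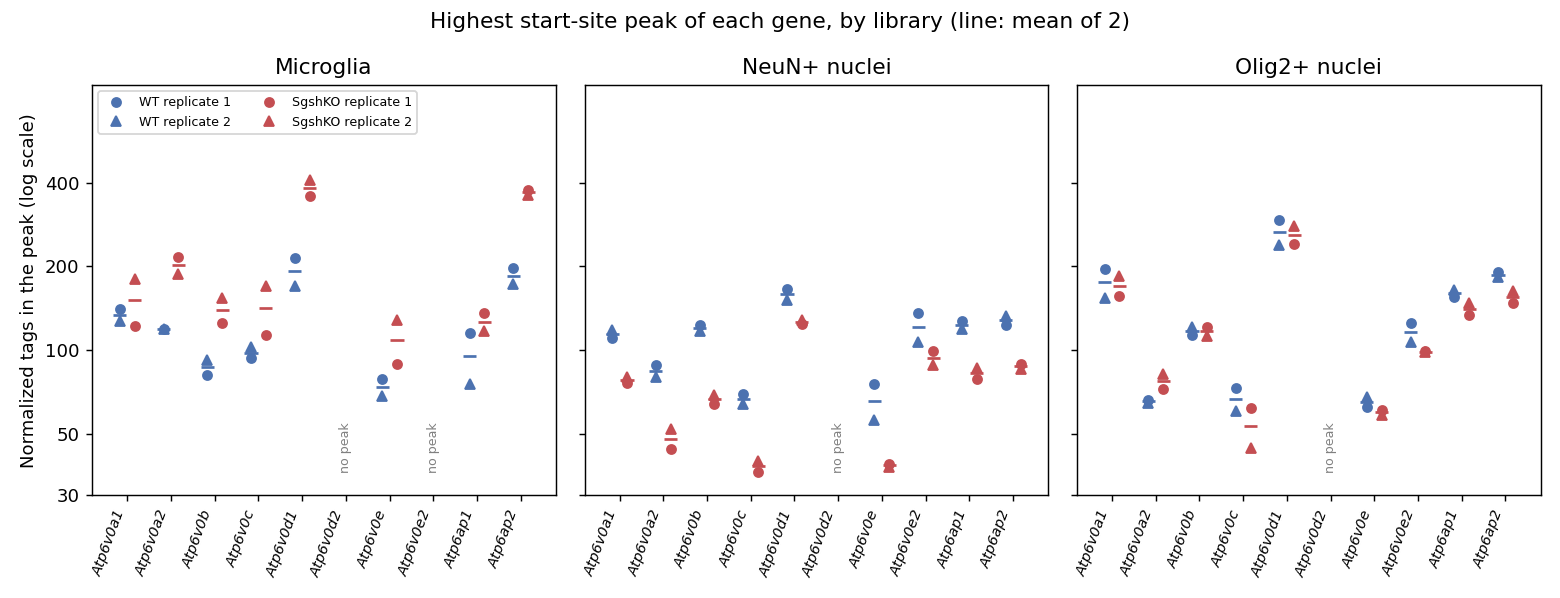
Normalized tags (vertical axis, log scale) at the highest start-site peak of each of the 10 genes in each library, with WT in blue, SgshKO in red, circles for replicate 1, triangles for replicate 2 and a line at the mean of 2. In microglia the SgshKO libraries of 7 of the 8 genes with a peak lay above both WT libraries, and in NeuN+ nuclei those of all 9 lay below. In Olig2+ nuclei those of 1 of the 9 lay above and those of 4 below, and the other groups overlapped.

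In SgshKO microglia, chromatin at the V0 genes was more open at 4 peaks and less open at 1. The peaks that rose were the start sites of Atp6ap2 and Atp6v0d1, each by a log2 change of 1.00, and a pair of peaks upstream of Atp6v0c. The peak that fell lay in an intron of Atp6v0a2. These 5 calls were 5 of 61 member peaks, or 8.20%, while 7.37% of all 91770 peaks in the table were called (5.05% higher, 2.33% lower). By position, 2 of 18 start-site peaks were called, 11.1% against 9.8% of all start-site peaks (8.59% higher, 1.2% lower), and 3 of 43 distal peaks were called, 6.98% against 6.52% (3.8% higher, 2.72% lower). The share of members called was therefore near that of the table. Their start-site changes had a median of 0.47 (log2), against 0.03 over all 23806 start-site peaks and 0.24 over the 10681 start-site peaks that overlap a RefSeq promoter window. Both SgshKO libraries lay above both WT libraries at 11 of the 18 start-site member peaks, against 32.7% of all start-site peaks.

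Among the accessory proteins, the Atp6ap2 start-site peak (chrX:12587576-12587876, 33 bp upstream) held 197 and 173 normalized tags in the WT libraries and 378 and 362 in the SgshKO libraries. The genotypes did not overlap, and the log2 change was 1.00 ± 0.26 (SE), adjusted p = 0.0138. At the Atp6ap1 start-site peak, 102 bp upstream, the values were 115 and 75.4 (WT) and 136 and 117 (SgshKO). The lower SgshKO library lay just above the higher WT library there, and the change of 0.43 (95% interval -0.19 to 1.05, adjusted p = 0.431) was not called.

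Of the d subunits, Atp6v0d1 is the broadly expressed one. Its start-site peak (chr8:105565894-105566212), which holds the E-box printed above, had 215 and 169 normalized tags in the WT libraries and 359 and 409 in the SgshKO libraries, a log2 change of 1.00 ± 0.26 (SE), adjusted p = 0.0143. Both SgshKO libraries lay well above both WT libraries, and it held the most normalized tags of the member start-site peaks in this sort, over a peak of 319 bp. At a second Atp6v0d1 peak 609 bp into the gene, the values were 38.03 and 44.05 (WT) and 34.6 and 25.99 (SgshKO), with a change of -0.44 (95% interval -1.21 to 0.34, adjusted p = 0.543). For Atp6v0d2, whose peaks in this table are all distal, the highest one lay in intron 2 of 7, 26722 bp downstream of the start, with 63.95 and 50.8 normalized tags in the WT libraries and 93.5 and 136 in the SgshKO libraries. The genotypes did not overlap, and the change of 0.97 (95% interval 0.32 to 1.62, adjusted p = 0.0584) missed the threshold. The other 4 Atp6v0d2 peaks, 3 of them in the same intron, had log2 changes from -0.98 to 0.25, and 0 of them were called.

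Of the proteolipids, Atp6v0c had the peaks with the largest called increases. The peak 1226 bp upstream (chr17:24170795-24171014, intergenic) held 111 and 125 normalized tags in the WT libraries and 291 and 244 in the SgshKO libraries, a log2 change of 1.17 ± 0.28 (SE), adjusted p = 0.00616. The peak 2213 bp upstream (chr17:24171784-24171999, intergenic) held 118 and 103 normalized tags in the WT libraries and 239.8 and 235 in the SgshKO libraries, a change of 1.09 ± 0.28 (SE), adjusted p = 0.0115. At both, the SgshKO libraries stood close together, well above the WT libraries. Another upstream peak, 2790 bp away, had 106 and 77.9 (WT) and 161 and 147 (SgshKO) and a change of 0.75 (95% interval 0.15 to 1.35, adjusted p = 0.122), so it was not called although its genotypes did not overlap. Atp6v0c has several annotated start sites, and 3 start-site peaks. The widest, 165 bp upstream, had 93.3 and 103 (WT) and 113 and 169.9 (SgshKO), with a change of 0.50 (95% interval -0.11 to 1.11, adjusted p = 0.34). The one 37 bp upstream had 42.4 and 40.7 (WT) and 78.8 and 77.98 (SgshKO), with a change of 0.90 (95% interval 0.22 to 1.58, adjusted p = 0.0972). The one that holds the M-box, 9 bp downstream, had 26.8 and 30.5 (WT) and 32.03 and 90.98 (SgshKO), and 1 SgshKO library alone stood apart from the other 3. Atp6v0b, which encodes the c″ proteolipid, had 81.2 and 92.3 (WT) and 126 and 154 (SgshKO) at its start-site peak 61 bp upstream, where its pair of E-boxes lies. The genotypes did not overlap, and the change of 0.68 (95% interval 0.07 to 1.28, adjusted p = 0.171) was not called.

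Of the a subunits, Atp6v0a2 is best known from the Golgi and endosomes and Atp6v0a1 from neurons. The Atp6v0a2 start-site peak, 75 bp upstream, held 119 and 119 (WT) and 216 and 188 (SgshKO). The SgshKO libraries were clearly apart from the WT libraries, which differed by less than 1 normalized tag (138 and 141 reads before scaling). The change of 0.75 (95% interval 0.18 to 1.32, adjusted p = 0.0982) missed the threshold. In intron 2 of 19 of the same gene, 4594 bp downstream (chr5:124633537-124633756), the peak that fell had 35.4 and 24.6 normalized tags in the WT libraries and 16.4 and 4.64 in the SgshKO libraries. Its log2 change was -1.62 ± 0.49 (SE), adjusted p = 0.0343, and its SgshKO libraries also differed widely from each other. The change ran from -2.44 to -0.81 when 1 library was left out, and the call was lost without WT replicate 1, WT replicate 2 or SgshKO replicate 2 (adjusted p up to 0.591) and with DESeq2 (adjusted p = 0.156). At Atp6v0a1, whose start-site peak held 141 and 127 (WT) and 122 and 180.1 (SgshKO), the genotypes overlapped and the change was 0.15 (95% interval -0.45 to 0.74, adjusted p = 0.82). For Atp6v0e, a small e subunit, the values at the start-site peak with the E-box were 78.6 and 68.6 (WT) and 89.2 and 128 (SgshKO). The SgshKO libraries lay above the WT libraries, and the change of 0.54 (95% interval -0.10 to 1.17, adjusted p = 0.327) was not called.

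The microglial calls rested on both WT libraries. Without WT replicate 1 or WT replicate 2, limma called 0 member peaks (6 and 8 at an unadjusted p under 0.05), while it called 1159 and 557 peaks of the whole table, and the adjusted p of the Atp6ap2 start site reached 0.611. The count was 15 without SgshKO replicate 1, 9 without SgshKO replicate 2, 12 with edgeR on the recovered reads (10 higher, 2 lower) and 6 with DESeq2 (6 higher, 0 lower). Under other scalings 2 or 4 start-site peaks were called higher, with 4 higher and 3 lower in all when libraries were scaled to the sum in peaks, 8 and 1 with median-of-ratios scaling and 6 and 2 after quantile normalization. The Atp6v0d1 call was lost after quantile normalization (adjusted p = 0.052), and the Atp6v0a2 start site was called with edgeR, DESeq2 and median-of-ratios scaling. The SgshKO replicate 1 library had the highest share of tags in peaks, 67.4%, against 55.8% and 48.7% in the WT libraries and 53.7% in SgshKO replicate 2. Summed start-site tags of the microglial markers were 2760.3 and 2460.2 in the WT and 3139 and 2394 in the SgshKO libraries, so that the genotypes overlapped. Those of the oligodendrocyte markers (6 of 10 present) were 357 and 321 in WT against 432 and 362 in SgshKO, and those of the oligodendrocyte precursor markers (3 of 5 present) were 336 and 324 in WT against 253 and 187 in SgshKO. Neuronal markers (4 of 10 present) summed to 301 and 338 in WT against 447 and 246 in SgshKO. For endothelial markers (3 of 7) the sums were 283 and 236 against 253 and 197, and for astrocyte markers (4 of 8) 136 and 96.6 against 134 and 110. Their part in the result was not tested.

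**Figure D2:**
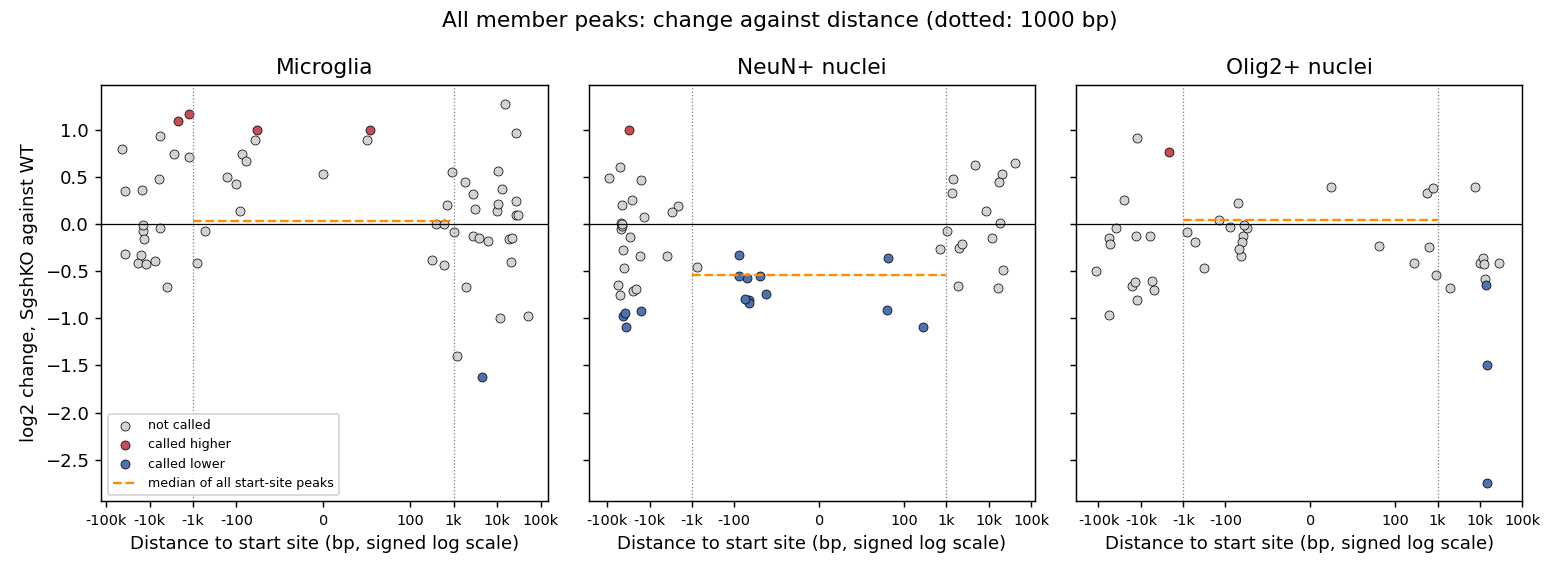
The log2 change between SgshKO and WT (vertical axis) of all 159 member peaks against their distance to the start site (horizontal axis, base pairs on a signed log scale), with called peaks in red (higher) or blue (lower), the 1000 bp boundary dotted, and the median of all start-site peaks dashed. In NeuN+ nuclei the 13 start-site peaks all lay below 0 around a median that is itself -0.53, and in Olig2+ nuclei the lowest point, at -2.74, is a peak in intron 2 of Atp6v0e.

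In NeuN+ nuclei, the start sites of the V0 genes were less open in SgshKO, with 11 of 13 start-site peaks lower and 0 higher. Every gene with a start-site peak, 9 of the 10, had its highest one called lower, from a log2 change of -0.84 at Atp6v0b to -0.33 at Atp6v0d1. This share, 84.6%, stands beside 44.9% of all start-site peaks that were called lower in this sort, with 1.74% higher and 46.6% called in all. The median change of the member start-site peaks was -0.57, and that of all 23397 start-site peaks was -0.53. Of the 10804 start-site peaks that overlap a promoter window, 56.3% were called lower, with a median change of -0.57. The member start-site peaks also stood higher than most, with a median of 66.1 normalized tags against 24.5 over all start-site peaks. Both SgshKO libraries lay below both WT libraries at 11 of the 13 member peaks, against 70.9% of all start-site peaks. Over all positions, 16 of 54 member peaks were called, 29.6%, against 29.8% of the table (10.2% higher, 19.6% lower).

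Among the proteolipids, the Atp6v0b start-site peak (chr4:117887266-117887479) held 123 and 117 normalized tags in the WT libraries and 64.2 and 69.2 in the SgshKO libraries, a log2 change of -0.84 ± 0.13 (SE), adjusted p = 0.000136. This was the smallest adjusted p of the member start sites in this sort. The main Atp6v0c start-site peak held 69.7 and 63.8 (WT) and 36.3 and 40 (SgshKO), with a change of -0.79 ± 0.16 (SE), adjusted p = 0.00174. The smaller Atp6v0c peak 40 bp downstream of another start had 23.2 and 10.7 (WT) and 7.68 and 8.25 (SgshKO), and 1 WT library alone stood high there.

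Of the a subunits, Atp6v0a2 had 88.4 and 80.2 (WT) and 43.97 and 52.1 (SgshKO) at its start-site peak and a change of -0.80 ± 0.15 (SE), adjusted p = 0.000928. Atp6v0a1 had 111 and 118 (WT) and 76.1 and 80 (SgshKO), a change of -0.55 ± 0.12 (SE), adjusted p = 0.0034. In both genes the WT and SgshKO libraries were separate, with close replicates. Atp6v0d1, the d subunit, had 166 and 152 (WT) and 124 and 128 (SgshKO) and a change of -0.33 ± 0.10 (SE), adjusted p = 0.025. Its drop was the smallest of the called start sites.

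The estimated drop at the start was larger for Atp6v0e than for Atp6v0e2, a difference that was not tested. Atp6v0e had 75.3 and 55.9 (WT) and 39.1 and 38.1 (SgshKO) at its start and a change of -0.74 ± 0.17 (SE), adjusted p = 0.00476, and at a second peak in intron 1, 280 bp downstream, 36.8 and 35.01 (WT) and 16.8 and 15.9 (SgshKO) with a change of -1.09 ± 0.22 (SE), adjusted p = 0.00129. Atp6v0e2 had 136 and 107 (WT) and 99.1 and 88.2 (SgshKO) and a change of -0.36 ± 0.13 (SE), adjusted p = 0.0461. Its WT libraries were further from each other than the nearer one was from the SgshKO libraries. Of the accessory proteins, Atp6ap1 had 127 and 119 (WT) and 78.9 and 86.3 (SgshKO) (log2 change -0.57 ± 0.12 (SE), adjusted p = 0.0023). Atp6ap2 had 123 and 133 (WT) and 89.3 and 85.7 (SgshKO) (log2 change -0.54 ± 0.12 (SE), adjusted p = 0.00257). The drops of both accessory genes were close to the median of all start sites.

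The distal calls of this sort all belonged to Atp6v0e, to which 26 of the 41 distal member peaks were assigned. Of these 26, 18 lay within Ergic1, the next gene upstream, which encodes a protein of the early secretory pathway, so the assignment to Atp6v0e is by nearest start site only. The intergenic peak 15980 bp upstream (chr17:26660309-26660524) fell, with 67.97 and 59.3 normalized tags in the WT libraries and 30.7 and 35.5 in the SgshKO libraries and a log2 change of -0.92 ± 0.17 (SE), adjusted p = 0.00085. Within Ergic1, the peak 37549 bp upstream had 35.7 and 41.8 (WT) and 19.5 and 19.7 (SgshKO) and a change of -0.94 ± 0.21 (SE), adjusted p = 0.00289. The peaks 43302 and 35321 bp upstream fell as well, by 0.97 and 1.09 on the log2 scale. One peak in intron 9 of Ergic1, 31069 bp upstream, rose, with 12.46 and 9.60 (WT) and 24.4 and 21.6 (SgshKO) and a change of 1.00 ± 0.26 (SE), adjusted p = 0.00831. Peaks called lower, called higher and not called thus lay side by side in one gene. Of the 41 distal member peaks, 4 were called lower and 1 higher, 12.2% in all. In the whole table, 25.2% of distal peaks were called, 12.6% lower and 12.6% higher.

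The drop at start sites moved with the share of tags in peaks, which was lower in both SgshKO libraries, and with the level at neuronal marker start sites, whose sum was 1248 and 1144 in WT against 678 and 692 in SgshKO. Summed start-site tags of the oligodendrocyte markers (5 of 10 present) were 192 and 165 in WT against 93.5 and 96.5 in SgshKO, those of the astrocyte markers (3 of 8) 180 and 168 against 139 and 149, and 9 of 10 microglial markers, Cx3cr1, P2ry12 and Csf1r among them, had no start-site peak. The part of these in the result was not tested. Scaled to the sum in peaks, which moved the median change of all peaks from -0.23 to 0.05, 4 member start-site peaks were called lower and 0 higher, and over all positions 6 were lower and 3 higher. After quantile normalization 1 start-site peak was lower (over all positions 4 lower and 1 higher), and the changes at Atp6v0d1, Atp6v0e2 and Atp6ap2 became 0.24, 0.19 and 0.01. DESeq2 called 1 member peak, lower. Without SgshKO replicate 1 or SgshKO replicate 2, limma called 0 peaks in the whole table, members included (14 and 18 members at an unadjusted p under 0.05), and without WT replicate 1 or WT replicate 2 it called 8 and 10 member peaks.

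In Olig2+ nuclei, 0 of the 19 start-site member peaks were called by limma (1 at an unadjusted p under 0.05), against 20.3% of all start-site peaks (12.7% higher, 7.56% lower). edgeR and DESeq2 on the recovered reads called 0 start-site member peaks as well. The changes that were called lay away from the start sites: 3 neighbouring peaks in intron 2 of Atp6v0e fell, and a peak near Atp6v0b rose. In all, 4 of 44 member peaks were called, 9.09% against 19.8% of the table (8.17% higher, 11.7% lower), and 4 of 25 distal ones, or 16%, against 19.7% (6.7% higher, 13% lower). The start-site peaks had a median log2 change of -0.12, against 0.05 over all 20120 start-site peaks.

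The largest difference of the 159 member peaks was at an Atp6v0e peak in intron 2 of 3, 14862 bp downstream of the start (chr17:26691107-26691409). It held 65.9 and 86.9 normalized tags in the WT libraries and 8.61 and 12.6 in the SgshKO libraries, a log2 change of -2.74 ± 0.23 (SE), adjusted p = 4.5e-10. Both SgshKO libraries lay far below both WT libraries. By its p-value it ranked 47 of the 82577 Olig2+ peaks. The next peak, 14397 bp downstream, had 11.9 and 12.3 (WT) and 4.92 and 2.66 (SgshKO) and a change of -1.49 ± 0.36 (SE), adjusted p = 0.0042. The one 14057 bp downstream had 33.7 and 34.3 (WT) and 22.1 and 20.6 (SgshKO) and a change of -0.65 ± 0.22 (SE), adjusted p = 0.034. In all 5 Atp6v0e peaks over 10000 bp downstream, which lie in this intron, the SgshKO mean was below the WT mean, and the drop was largest at the peak farthest from the start. The call at 14862 bp held under every alternative run, with log2 changes from -3.00 to -2.38, whereas that at 14397 bp was lost without WT replicate 1 or WT replicate 2 (largest adjusted p = 0.0988) and that at 14057 bp under 7 of the settings.

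The microglial table has a peak at the same place, 14904 bp downstream (chr17:26691164-26691436), with 5.19 and 9.32 normalized tags in the WT libraries and 25.97 and 13.00 in the SgshKO libraries. There the SgshKO libraries lay above the WT libraries, and the change of 1.28 (95% interval 0.27 to 2.29, adjusted p = 0.112) was not called. The NeuN+ table lists no peak there, so it was outside the set matched over all 3 tables. A limma fit of the 8 microglia and Olig2+ libraries over 22710 peaks matched between those 2 tables was added after the values had been seen. In it the change differed between the sorts by 4.03 ± 0.54 on the log2 scale (SE, adjusted p = 9.82e-05), and by 3.55 to 4.50 without any 1 of the 8 libraries, with adjusted p up to 0.00194. Of all peaks in that fit, 15.2% were called.

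**Figure D3:**
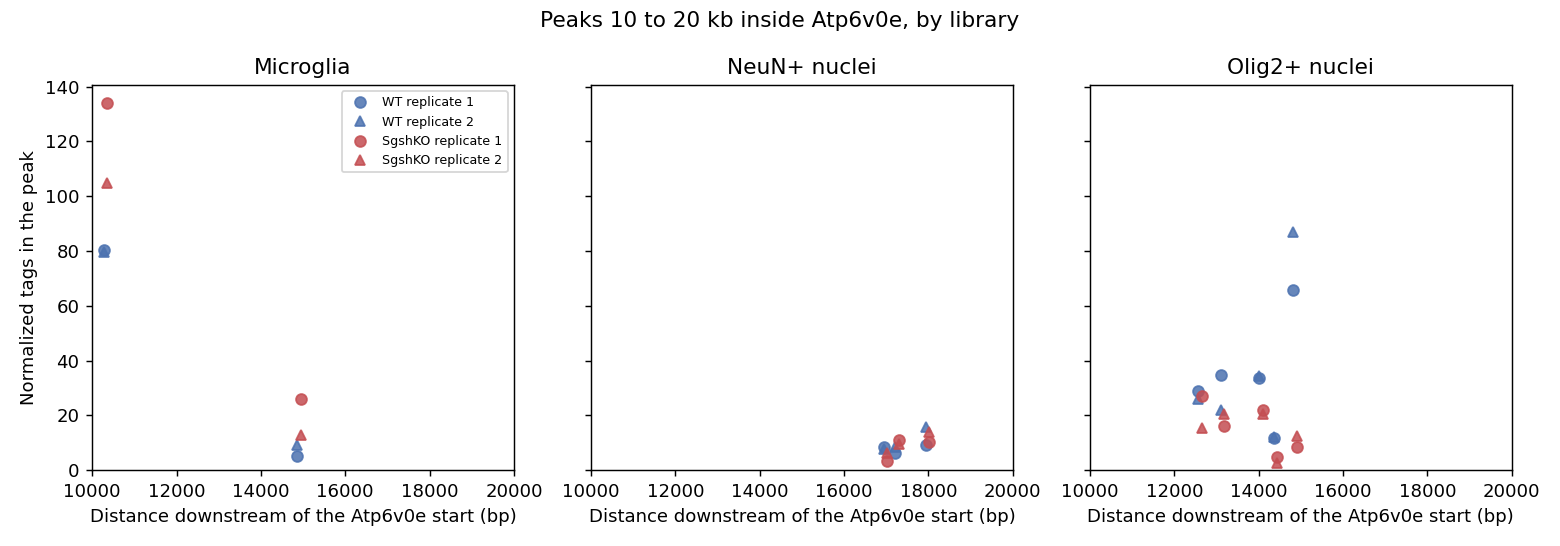
Normalized tags (vertical axis) in each library at the peaks 10 to 20 kb downstream of the Atp6v0e start (horizontal axis, base pairs, with WT in blue and SgshKO in red drawn slightly apart, circles for replicate 1 and triangles for replicate 2). In Olig2+ nuclei the peak at 14862 bp held 65.9 and 86.9 in WT and 8.61 and 12.6 in SgshKO, while at the same place in microglia SgshKO lay above WT.

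The Olig2+ peak that rose lay 2148 bp upstream of Atp6v0b (chr4:117889146-117889808) and is annotated to the 3′ UTR of the neighbouring gene Dph2, an enzyme of diphthamide synthesis. It had 18.1 and 21.99 normalized tags in the WT libraries and 39.4 and 30.6 in the SgshKO libraries, a log2 change of 0.77 ± 0.23 (SE), adjusted p = 0.0162. The SgshKO libraries lay above the WT libraries, and the call was lost without WT replicate 1, without SgshKO replicate 1 and with DESeq2 (adjusted p up to 0.158).

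At the start sites of the ring and d subunits, the Olig2+ genotypes lay close together. Atp6v0b had 114 and 121 (WT) and 121 and 112 (SgshKO), a change of -0.01 (95% interval -0.25 to 0.23, adjusted p = 0.969). Atp6v0d1 had 294 and 239 (WT) and 241 and 279 (SgshKO), a change of -0.03 (95% interval -0.22 to 0.16, adjusted p = 0.845). The genotypes overlapped at both, and the intervals reach to either side of 0. The main Atp6v0c start had 73.1 and 60.3 (WT) and 62.1 and 44.5 (SgshKO), a change of -0.33 (95% interval -0.68 to 0.02, adjusted p = 0.168).

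Of the a subunits, Atp6v0a1 had 196 and 154 (WT) and 157 and 184 (SgshKO), with overlapping genotypes and a change of -0.03 (95% interval -0.26 to 0.19, adjusted p = 0.855). Atp6v0a2 had 66.4 and 64.4 (WT) and 72.5 and 81.8 (SgshKO), with a change of 0.23 (95% interval -0.06 to 0.53, adjusted p = 0.263). It was the only one of the 9 highest start-site peaks in this sort at which both SgshKO libraries lay above both WT libraries, a pattern that 34.7% of all start-site peaks showed. At 4 of the 9, Atp6v0e and Atp6v0e2 among them, both SgshKO libraries lay below both WT libraries, a count for which no share over all peaks is given here. The e subunits had 62.2 and 68.01 (WT) and 60.9 and 58.5 (SgshKO) at Atp6v0e, a change of -0.12 (95% interval -0.44 to 0.19, adjusted p = 0.602), and 126 and 107 (WT) and 98.99 and 98.4 (SgshKO) at Atp6v0e2, a change of -0.23 (95% interval -0.48 to 0.02, adjusted p = 0.183).

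Of the accessory genes, Atp6ap2 had the smallest adjusted p of the 9 highest start-site peaks in this sort. It had 191 and 183 (WT) and 148 and 163 (SgshKO), and its change of -0.27 (95% interval -0.47 to -0.06, adjusted p = 0.0574) missed the threshold, although it was called after quantile normalization and without SgshKO replicate 2. Atp6ap1 had 156 and 165 (WT) and 134 and 148 (SgshKO), a change of -0.19 (95% interval -0.40 to 0.03, adjusted p = 0.209). In both, the SgshKO libraries lay below the WT libraries. The number of called member peaks moved from 4 to 1 or 2 when WT replicate 1 or WT replicate 2 was left out, to 8 when either SgshKO replicate 1 or SgshKO replicate 2 was, and to 1 with DESeq2. With median-of-ratios scaling 1 was higher and 2 were lower, and quantile normalization gave 2 higher with 3 lower. Summed start-site tags of the oligodendrocyte markers were 3739 and 3673 in WT against 3063 and 3066 in SgshKO, and those of the oligodendrocyte precursor markers (5 of 5 present) were 311 and 294 in WT against 354 and 366 in SgshKO. Those of the microglial markers (2 of 10 present, with none for Cx3cr1, P2ry12 or Csf1r) were 240.2 and 233 in WT against 271 and 284 in SgshKO. Their part in the result was not tested.

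To set the sorts beside each other, peaks were matched one-to-one over the 3 tables by a reciprocal overlap of 50%, which gave 16761 peaks, 14 of them members (9 at start sites, 5 distal). In WT libraries, 8 of the 14 differed between microglia and NeuN+ nuclei (4 higher and 4 lower in microglia), 10 between microglia and Olig2+ nuclei (6 and 4) and 7 between NeuN+ and Olig2+ nuclei (3 higher and 4 lower in NeuN+). Of all matched peaks, 65.8%, 67.2% and 49.5% differed. Differences of microglia from nuclei also carry that between live cells and fixed nuclei, which cannot be told apart from the cell type. Matched peaks differ in width between tables, and the values that follow are tags over each table's own peak unless given per 200 bp.

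The Atp6v0a2 start site was the one most open in microglia, with 119 ± 0.134 in microglia, 84.3 ± 5.78 in NeuN+ and 65.4 ± 1.39 in Olig2+ nuclei (WT means ± SD, n = 2). It was higher in microglia than in Olig2+ nuclei by 0.86 ± 0.16 (SE), adjusted p = 7.21e-05, and than in NeuN+ nuclei by 0.50 ± 0.16 (SE), adjusted p = 0.0103, while the latter 2 did not differ beyond the threshold (adjusted p = 0.0722). Atp6v0d1 followed another order, with 192 ± 32.4 in microglia, 159 ± 9.93 in NeuN+ and 266 ± 39.1 in Olig2+ nuclei. Its Olig2+ level was above both others, and its microglial and NeuN+ levels did not differ beyond the threshold (adjusted p = 0.118). Atp6v0a1 had 134 ± 9.76 in microglia, 115 ± 4.96 in NeuN+ and 175 ± 29.4 in Olig2+ nuclei. It was lower in NeuN+ than in Olig2+ nuclei by -0.60 ± 0.17 (SE), adjusted p = 0.00616, and microglia did not differ from either beyond the threshold.

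The proteolipid starts were the reverse of Atp6v0a2. Atp6v0c had 41.5 ± 1.20 in microglia, 66.7 ± 4.14 in NeuN+ and 66.7 ± 9.04 in Olig2+ nuclei at the matched peak 37 bp upstream in the microglial table, and Atp6v0b had 86.8 ± 7.85 in microglia, 119.9 ± 4.26 in NeuN+ and 117 ± 5.37 in Olig2+ nuclei. Both were lower in microglia than in either kind of nuclei, and NeuN+ and Olig2+ nuclei did not differ beyond the threshold (adjusted p = 0.984 and 0.888). The widest Atp6v0c start-site peak, which has no match in NeuN+ nuclei, ran the other way, with WT means of 97.9 in microglia and 47.4 in Olig2+ nuclei, a difference that was not tested. The accessory gene Atp6ap1 had 95.2 ± 27.96 in microglia, 123 ± 5.46 in NeuN+ and 160.4 ± 6.77 in Olig2+ nuclei, again with microglia lower than both. Atp6ap2 had 185 ± 17.1 in microglia, 128 ± 6.53 in NeuN+ and 187 ± 6.25 in Olig2+ nuclei. It was lower in NeuN+ nuclei than in both others, and microglia and Olig2+ nuclei did not differ beyond the threshold (adjusted p = 0.91). The 2 matched Atp6v0e start-site peaks passed no WT comparison. Per 200 bp of peak, Atp6ap2 was lower in microglia than in Olig2+ nuclei (-0.56, adjusted p = 0.000935), Atp6v0a1 was higher in microglia than in NeuN+ nuclei (0.51, adjusted p = 0.0122), and Atp6ap1 no longer differed between microglia and NeuN+ nuclei beyond the threshold (adjusted p = 0.702). On that scale the Atp6v0d1 difference between microglia and NeuN+ nuclei turned from 0.26 to -0.24, called on neither.

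All 5 distal members were more open in WT microglia than in Olig2+ nuclei, against 49% of all matched distal peaks, and 2 of the 5 more than in NeuN+ nuclei, against 54.2%. A peak 13245 bp upstream of Atp6v0e had 174 ± 10.3 in microglia, 44.1 ± 3.90 in NeuN+ and 81.1 ± 3.19 in Olig2+ nuclei, in the order microglia, Olig2+, NeuN+, and all 3 comparisons were called. The peak 15979 bp upstream of Atp6v0e ran in another order, with 41.9 ± 0.594 in microglia, 63.6 ± 6.13 in NeuN+ and 24.5 ± 6.44 in Olig2+ nuclei, and all 3 comparisons were again called. Per 200 bp, the microglia against Olig2+ calls at this peak (adjusted p = 0.0865) and at the distal Atp6v0d1 peak (adjusted p = 0.221) and the NeuN+ against Olig2+ call at the Atp6v0e peak 13245 bp upstream (adjusted p = 0.163) were lost. Another scaling changed the split of the WT calls. Scaled to the sum in matched peaks it was 2 higher and 5 lower for microglia against NeuN+ nuclei, 5 and 5 for microglia against Olig2+ nuclei and 5 and 2 for NeuN+ against Olig2+ nuclei. With median-of-ratios scaling it was 2 and 5, 3 and 6, and 4 and 4, and after quantile normalization 1 and 7, 3 and 5, and 4 and 2. Without NeuN+ WT replicate 1 or NeuN+ WT replicate 2 the count between microglia and NeuN+ nuclei was 3 or 5.

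The effect of SgshKO itself differed between the sorts, by a test of the difference. Between microglia and NeuN+ nuclei, 8 of the 9 matched start-site members differed, each with the higher change in microglia, and of all matched start-site peaks 55.1% did so. The differences had a median of 1.33 over the 9 members and 0.84 over all 10516 matched start-site peaks. The largest were 1.69 ± 0.28 (SE), adjusted p = 3.47e-05 at Atp6v0c and 1.55 ± 0.23 (SE), adjusted p = 7.56e-06 at Atp6v0a2. Atp6ap2 had 1.54 ± 0.19 (SE), adjusted p = 6.54e-07, and the smallest that was called was 0.69 ± 0.24 (SE), adjusted p = 0.0251 at Atp6v0a1. The exception was the second Atp6v0e peak, 313 bp downstream, at 0.72 ± 0.45 (SE), adjusted p = 0.219.

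Between microglia and Olig2+ nuclei, 4 of the 9 start-site members differed, all higher in microglia, against 23.9% of all matched start-site peaks. These were Atp6ap2 (1.27 ± 0.19 (SE), adjusted p = 3.81e-05), Atp6v0c (1.23 ± 0.28 (SE), adjusted p = 0.00282), Atp6v0d1 (1.03 ± 0.21 (SE), adjusted p = 0.000811) and Atp6v0b (0.69 ± 0.22 (SE), adjusted p = 0.0292). The Atp6v0b call was lost under 9 of 19 settings. In the 8-library fit of microglia and Olig2+ nuclei Atp6v0b was not called either (adjusted p = 0.0721), nor were the other 2 Atp6v0c start-site peaks matched there, at 0.45 (adjusted p = 0.343) and 0.51 (adjusted p = 0.55). The median over all matched start-site peaks was 0.26. Between NeuN+ and Olig2+ nuclei, 2 members differed, both lower in NeuN+: Atp6v0a2 (-1.03 ± 0.23 (SE), adjusted p = 0.00204) and Atp6v0b (-0.83 ± 0.22 (SE), adjusted p = 0.00705), against 41.4% of all matched start-site peaks. Of the 5 distal members, 0 differed by limma in any pair (0 at an unadjusted p under 0.05 between microglia and either kind of nuclei, 1 between NeuN+ and Olig2+ nuclei), against 19.9%, 11% and 14.5% of all matched distal peaks.

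These differences depended on the scaling. Against 14 calls in the main fit, 7 were made when libraries were scaled to the sum in matched peaks (5 higher and 2 lower). The total was 10 with median-of-ratios scaling and 5 after quantile normalization. Each total includes comparisons that were not among the 14, such as the 2 lower ones. The microglia against Olig2+ differences of Atp6ap2 and Atp6v0c were called under all settings run, from 0.68 to 1.36 and from 0.83 to 1.47. The microglia against Olig2+ difference of Atp6v0d1 was lost after quantile normalization (adjusted p = 0.0674). The microglia against NeuN+ difference of Atp6v0a1 ran from -0.33 to 0.97 and was lost under 8 of 18 settings, and those of Atp6v0e and Atp6ap1 were lost under all 3 other scalings. Those of Atp6v0c and Atp6v0b were lost with scaling to the sum in matched peaks. Quantile normalization removed those of Atp6v0a2 and Atp6ap2, and that of Atp6v0d1 was lost under both (adjusted p up to 0.79). Both NeuN+ against Olig2+ differences were lost under the same 3 scalings, reaching -0.24 at Atp6v0b (adjusted p up to 0.542) and -0.45 at Atp6v0a2 (adjusted p up to 0.192).

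**Figure D4:**
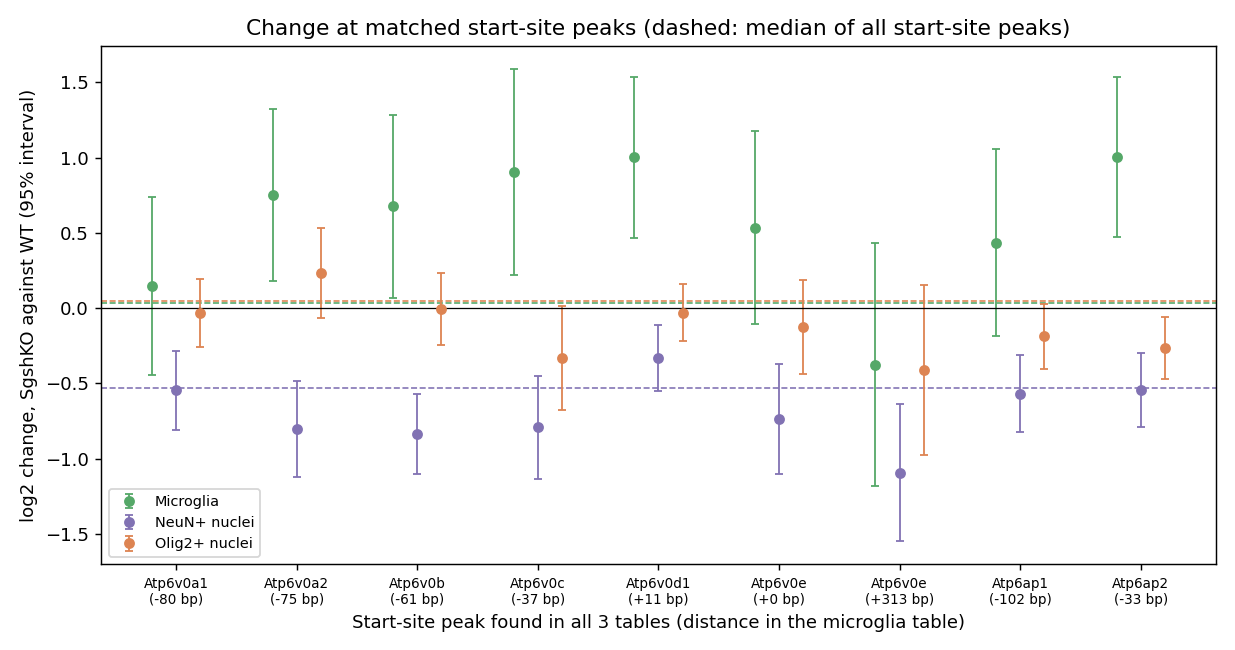
The log2 change between SgshKO and WT (vertical axis, with 95% intervals from the fit of each table) at the 9 start-site peaks matched over the 3 tables, in microglia (green), NeuN+ nuclei (purple) and Olig2+ nuclei (orange), with the median of all start-site peaks of each sort dashed. The microglial changes lie above the NeuN+ changes at all 9 peaks, and the NeuN+ points lie below their dashed line at -0.53 except that of Atp6v0d1.

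The rest of the pump was described from 2 lists chosen with earlier results of these data known. The V1 sector list held 13 genes, 9 of which had a start-site peak in microglia, 15 peaks in all, with 4 higher, 1 lower and a median log2 change of 0.53, where 8.59% of all start-site peaks were higher and 1.2% lower. The largest rise was at Atp6v1g1, a stalk subunit, with 63.1 and 64.4 normalized tags in WT and 226 and 289 in SgshKO (log2 change 1.99). Atp6v1b2, a subunit of the ATP-hydrolysing head, went from 37.2 and 28.0 to 83.1 and 111 (1.55). Atp6v1f and Atp6v1c1 rose by 1.20 and 1.18, and Atp6v1g2, a stalk isoform known from neurons, was the one that fell, from 89.0 and 68.6 to 47.6 and 25.99 (-1.13). The V1 start sites had in common with those of V0 a median above that of all start-site peaks.

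The second list held 11 other V0 and assembly genes, with 18 start-site peaks of 8 genes in microglia, 2 higher, 0 lower and a median of 0.05. The pair that rose was Tcirg1, the a3 subunit of osteoclasts and macrophages (143 and 129 in WT, 281 and 245 in SgshKO, at a peak 939 bp from the start), and Tmem199, an assembly factor (181 and 139.8 in WT, 321 and 319 in SgshKO). In NeuN+ nuclei the V1 list had 6 of 18 start-site peaks lower and 0 higher, and the assembly list 7 of 16 lower and 0 higher, against 44.9% lower over all start-site peaks. Among those that fell was Rogdi (243 and 248 in WT, 143 and 144 in SgshKO). In Olig2+ nuclei the V1 list had 2 of 19 start-site peaks higher and 3 lower, and the assembly list 1 of 16 higher and 1 lower, against 12.7% higher and 7.56% lower over all start-site peaks. Atp6v1b2 and Atp6v1c1 were higher there, by 0.49 and 0.37, as Atp6v1b2 and Atp6v1c1 were in microglia, and in NeuN+ nuclei both were lower (-0.61 and -0.48). These values stand side by side, and the differences between sorts were not tested for these lists.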

How the data were processed

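ATAC-seq was measured in 12 libraries, 2 for each of 3 sorts and 2 genotypes. The authors deposited 1 peak table per sort with signal as tags per peak, scaled to 10000000 tags per library per the file headers. The submitters' processing notes name mm10, Bowtie2 and HOMER without versions. Whole reads were recovered from 100% of the values (tolerance 0.01), and 0 columns were left over. Totals were 10771659 to 19555924 tags, which limits the precision at low peaks.

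Log2(normalized tags + 1) was tested with limma 3.58.1 (trend, R 4.3.3) over each whole table, with Benjamini-Hochberg adjustment, and peaks with an adjusted p under 0.05 were called. All fold changes are on this scale, which understates changes at low peaks. edgeR 4.0.16 and DESeq2 1.42.0 were run on the recovered reads as alternatives. Start-site peaks lie within 1000 bp of the annotated start that the tables name. Peaks matched between tables with bedtools 2.31.1 (one-to-one, reciprocal overlap of 50%) entered 1 limma model of all 12 libraries, which tested WT levels between sorts and differences of the change. The fits were tested on simulated data.

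Named peaks were the highest start-site peak of each gene, up to 10 called peaks per table by smallest p, and the matched start-site peaks. Further peaks named in the text were chosen after their values were seen. The members and lists were chosen with earlier results of these data known. Alternatives were other pseudocounts, filters, scalings, tools, overlaps, a replicate block and leaving out each library.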

Additional observations from a re-analysis of the deposited data

Results flagged for a closer look

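The effect of SgshKO differed between sorts at 14 comparisons of matched start-site peaks, each by a limma test of the difference itself, adjusted over all matched peaks. Between microglia and NeuN+ nuclei the log2 change was higher in microglia by 1.69 at Atp6v0c, 1.55 at Atp6v0a2, 1.54 at Atp6ap2, 1.51 at Atp6v0b, 1.33 at Atp6v0d1, 1.27 at Atp6v0e, 1.00 at Atp6ap1 and 0.69 at Atp6v0a1. Between microglia and Olig2+ nuclei it was higher in microglia by 1.27 at Atp6ap2, 1.23 at Atp6v0c, 1.03 at Atp6v0d1 and 0.69 at Atp6v0b. Between NeuN+ and Olig2+ nuclei the difference was -1.03 at Atp6v0a2 and -0.83 at Atp6v0b. These comparisons share libraries, so the pairs are not independent of each other.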

How the results depend on the processing

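Of 474 recomputed values of 37 named results, 353 kept their direction and side of the threshold, 86 lost a call, 13 gained one and 22 changed sign. The 37 are changes at named peaks and the microglia against Olig2+ difference at the Atp6v0e intron 2 peak. That difference was added after the values had been seen, and all 8 of its recomputed values kept direction and call. The sign changes were all at peaks with small changes or in NeuN+ nuclei after quantile normalization, where Atp6v0d1 became 0.24, Atp6v0e2 0.19 and Atp6ap2 0.0113. Atp6v0a1 in microglia became -0.0582 with in-peak scaling and -0.12 with quantile normalization, and ranged from -0.13 to 0.43 when 1 library was left out. In Olig2+ nuclei, Atp6v0a1 became 0.0336 (median-of-ratios), 0.0244 (edgeR) and 0.0263 (DESeq2), with -0.21 to 0.14 when 1 library was left out. Atp6v0b at its start became 0.0112 (in-peak), 0.0593 (median-of-ratios), 0.0607 (edgeR) and 0.0614 (DESeq2), with -0.0621 to 0.0455 when 1 library was left out. Atp6v0d1 became 0.0372 (median-of-ratios), 0.0298 (edgeR) and 0.0317 (DESeq2), with -0.18 to 0.12 when 1 library was left out. The cause was not tested.

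The count of called members moved in microglia from 5 to 9 (median-of-ratios), 8 (quantile) and 12 (edgeR), in NeuN+ nuclei from 16 to 9 (in-peak), 5 (quantile) and 1 (DESeq2), and in Olig2+ nuclei from 4 to 1 (DESeq2). Leaving out 1 library gave 0 to 15 in microglia, 0 to 10 in NeuN+ nuclei, 1 to 8 in Olig2+ nuclei and 3 to 8 for WT microglia against NeuN+ nuclei. In-peak scaling moved the median change of all microglial peaks from -0.08 to -0.28 and of all NeuN+ peaks from -0.23 to 0.05. With a reciprocal overlap of 80%, fewer peaks were matched, and the WT counts became 4, 4 and 0 (microglia against NeuN+, microglia against Olig2+, NeuN+ against Olig2+). The count of differences between sorts moved from 14 to 7 at that overlap, where no call was lost at a peak that was still matched. It was 7 with scaling to matched peaks and 5 with quantile normalization.

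The replicate numbers were shared between genotypes. The deviations of same-numbered libraries from their group means had correlations over all peaks of 0.042 in microglia, 0.0036 in NeuN+ and 0.0007 in Olig2+ nuclei. Taken over all peaks, low ones included, and from 2 libraries per group, these values cannot show whether same-numbered libraries share a batch. With the replicate block, 12, 16 and 5 member peaks were called in microglia, NeuN+ and Olig2+ nuclei, 8, 10 and 7 in the WT comparisons and 14 for the differences between sorts.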

Other observations

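Start-site peaks that overlap promoter windows with the E-box or M-box motifs named above were also described over the whole tables, with no test. In microglia, the 10681 start-site peaks on any window had a median log2 change of 0.24, with 14.0% called higher in SgshKO. The 1201 on a window with CACGTG had a median of 0.36 and 18.0% higher, and the 218 on a window with TCACGTGA had a median of 0.39 and 19.7% higher, with 0 called lower by limma. In NeuN+ nuclei, the median was -0.57 over 10804 peaks on any window, with 56.3% lower. It was -0.54 over 1177 peaks with CACGTG, with 56.4% lower, and -0.45 over 222 peaks with TCACGTGA, with 47.7% lower. In Olig2+ nuclei the medians were 0.07 on any window, 0.07 with CACGTG and 0.10 with TCACGTGA. The shares called higher there were 15.9%, 17.2% and 17.5%. The peaks on a window with the M-box TCATGTGA were fewer, 72 in microglia (median 0.35, 16.7% higher), 69 in NeuN+ nuclei (median -0.38, 43.5% lower) and 74 in Olig2+ nuclei (median -0.12, 10.8% higher and 10.8% lower). The Atp6v0d1 and Atp6v0e windows hold TCACGTGA. Windows with a motif may also differ in base composition and in their neighbours, which was not examined, and no cause was tested.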
